A study of Mus musculus with 6 samples.

Results

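The 10 genes described here are Hes and Hey genes and 4 modulators of Notch signalling: Hes1, Hes5, Hes6, Hey1, Hey2, Heyl, Rbpj, Nrarp, Numb and Numbl. They were taken by gene symbol from a table of 25996 genes, and each symbol had 1 entry. The table holds RNA sequencing of 6 libraries of mouse neural stem cells grown under proliferation conditions, in which these precursors of neurons and glia keep dividing. Of these, 3 libraries came from cells with a control short hairpin RNA (shControl, genotype labelled WT) and 3 from cells with a hairpin against Mina53 (shMina53, genotype labelled Mina53 knockdown). Mina53 is the protein of the gene Riox2, a JmjC-domain oxygenase. The labels do not say from which age or brain region the cells came, nor whether replicates were separate cultures, so p-values measure the spread between these libraries, which may be technical. The labels name a single shMina53 hairpin and no rescue, so an effect of that hairpin on further transcripts and the loss of Riox2 cannot be told apart.

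Notch receptors are cleaved when a ligand on a neighbouring cell binds them, and the freed intracellular part joins the DNA-binding protein RBPJ to switch on target genes. Among these targets are several of the Hes and Hey genes, which encode bHLH-Orange repressors. In neural stem cells HES1 and HES5 hold down proneural factors and so keep the cells undifferentiated.

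The libraries held 13753857 to 16811085 reads. Values are scaled counts, which are read counts divided by 1 factor per library, given as mean ± SD over n = 3 libraries. Fold changes are shMina53 over shControl, on the scale of log2 of the scaled count plus 1. They come with the standard error (SE) of limma, whose p-values were adjusted by Benjamini-Hochberg over 21500 genes, and a gene is called at an adjusted p under 0.05. Riox2 itself had scaled counts of 290.4, 333 and 307 in shControl against 121, 125 and 121 in shMina53, 39.4% of the control mean. All 11 markers fixed for the neural stem cell identity given by the labels were detected. Detection alone does not settle identity, since the astrocyte marker Aldh1l1 was detected too (8315 to 11400 scaled counts per library). Sox2 had 7566 to 7991 scaled counts in the shControl libraries and 4738 to 5912 in the shMina53 libraries. It was called lower (log2 fold change -0.54, limma adjusted p = 0.00602). The library shControl 3 stood apart by transcript length. In it, genes with 1363 bases of exon, the length of Hes5, lay 0.41 log2 units above their mean over the 6 libraries along the length trend, and genes with 12750 bases, the length of Rbpj, lay 0.29 below it (offset -0.29).

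Transcripts of the Hes and Hey repressors were lower in shMina53. Hes1, Hes5, Hes6, Hey1 and Hey2 all fell, to between 54.2% and 74.0% of their control means, and so did Numbl, a Notch antagonist. Rbpj, Nrarp, Numb and the barely detected Heyl were not called. That is 6 of 10 genes called lower and 0 called higher by limma, against 8.26% of all tested genes called, 4.47% lower and 3.79% higher. In the same 6 genes every shMina53 library was under every shControl library, as in 14.1% of all tested genes. On the recovered reads, edgeR and DESeq2 each called the same 6 lower and 0 higher (backgrounds of 6.48% and 8.68% lower). With the trend and robust steps of limma left out, 0 of the 10 were called, with an adjusted p of 0.0728 for Hes5, while 32 of all tested genes were (0.0651% of them lower). In bulk RNA, fewer cells of a type and less RNA per cell cannot be told apart.

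**Figure D1:**
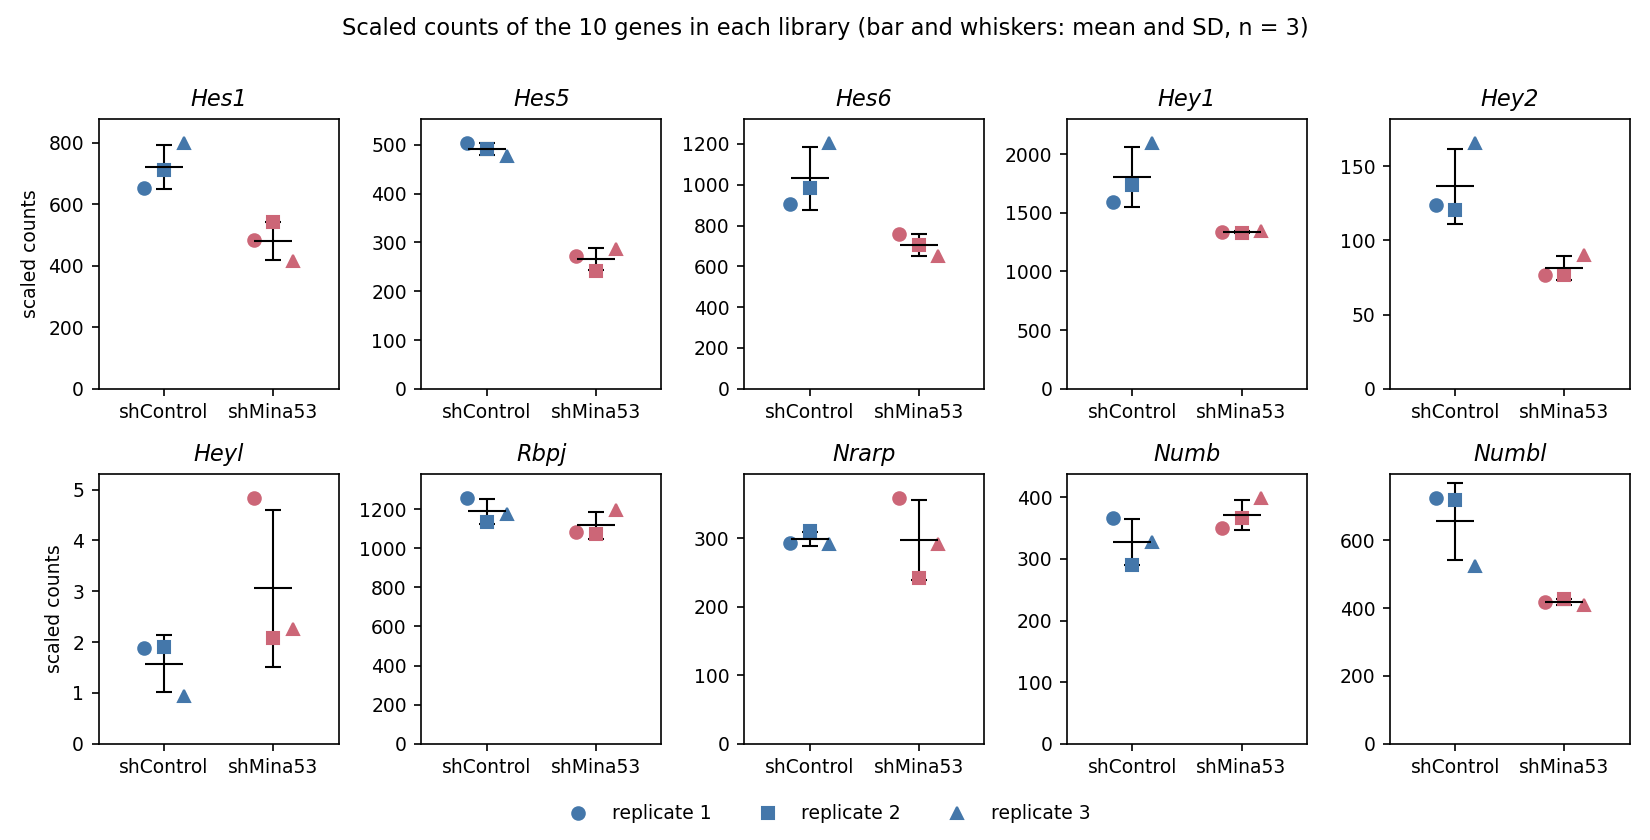
Scaled counts of the 10 genes in each library, with 1 panel per gene and its own axis from 0; symbols mark replicates 1, 2 and 3, and bars with whiskers the mean and SD of 3 libraries. For Hes1, Hes5, Hes6, Hey1, Hey2 and Numbl, every shMina53 library lies under every shControl library.

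The promoters of these genes were searched because Hes5 and Hey2, which fell, and Nrarp, which was not called, are all targets of RBPJ. RefSeq windows of 300 bases (build GRCm38.p6, 250 before to 50 after the start) were found for 7 of the 10 genes, 11 windows in all, and not for Hes1, Hey1 and Heyl. The high-affinity RBPJ sequence GTGGGAA, searched on both strands (TTCCCAC on the other), occurs in 6.38% of the 32851 windows in the RefSeq table and at 2 or more places in 0.256% of them. Hes5 and Hey2 had 2 matches each, and no other window of these genes had one. In Hes5 the matches begin 226 and 83 bases before the start, the first on the other strand, and in Hey2 they begin 207 and 4 bases before it, likewise. Their windows and that of Nrarp are shown from 250 bases before to 5 after the start, 5′ to 3′ on the gene's strand, with GTGGGAA matches in capitals: chr4:154960673-154960927 (plus strand) for Hes5, chr10:30842779-30843033 (minus strand) for Hey2 and chr2:25180508-25180762 (plus strand) for Nrarp.
Hes5: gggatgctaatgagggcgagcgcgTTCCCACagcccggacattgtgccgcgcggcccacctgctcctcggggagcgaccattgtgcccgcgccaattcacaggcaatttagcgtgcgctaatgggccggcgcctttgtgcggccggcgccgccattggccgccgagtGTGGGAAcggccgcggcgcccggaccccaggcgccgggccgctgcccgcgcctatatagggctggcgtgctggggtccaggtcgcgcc
Hey2: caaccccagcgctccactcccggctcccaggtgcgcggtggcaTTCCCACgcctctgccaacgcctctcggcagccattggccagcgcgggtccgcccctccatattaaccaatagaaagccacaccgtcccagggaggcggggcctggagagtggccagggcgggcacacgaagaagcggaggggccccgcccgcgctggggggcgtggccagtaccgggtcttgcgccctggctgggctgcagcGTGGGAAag
Nrarp: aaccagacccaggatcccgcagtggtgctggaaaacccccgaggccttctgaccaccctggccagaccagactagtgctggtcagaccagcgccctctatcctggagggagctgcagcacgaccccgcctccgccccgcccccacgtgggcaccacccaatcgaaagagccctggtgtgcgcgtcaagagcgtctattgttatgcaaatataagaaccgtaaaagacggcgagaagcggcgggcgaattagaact
The sequences bound by Hes and Hey repressors themselves were searched too. CACNAG, the N box, occurs in 42.5% of all windows, and CACGNG, which includes the E box CACGTG, in 27.5%. The Nrarp window holds 2 matches of CACNAG and 1 of CACGNG, at its CACGTG 108 bases before the start, and neither motif occurs in the windows of Hes5, Hey2, Rbpj and Numbl. One of the 2 Hes6 windows holds CACNAG and the other CACGNG, and in 1 of the 3 Numb windows a single place matches both motifs. A match describes letters in a window and is not evidence of binding in these cells.

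Hes5 (ENSMUSG00000048001, mm10 chromosome 4, 154960923 to 154962371, plus strand), a repressor that Notch induces in neural progenitors, had the largest of the 6 falls, though not with the length trend removed. It had scaled counts of 503, 492 and 478 in shControl against 273, 241 and 286 in shMina53. In these counts the groups were far apart beside the spread within them, with 491 ± 12.7 against 266 ± 23.1. The counts keep the length trend, whose offset at the length of Hes5 differed between libraries. It was -0.06, 0.10 and 0.41 in shControl and -0.06, -0.14 and -0.22 in shMina53. The log2 fold change was -0.88 (SE 0.127, limma adjusted p = 0.000598), and Hes5 ranked 82 of 21500 genes by p. Hes5 stayed called without any 1 library, with an adjusted limma p of at most 0.00870, in fits that keep the length trend. An antisense transcript, Gm20421, shares 433 exonic bases with it but had a mean of 2.73 scaled counts.

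Hes1 (ENSMUSG00000022528, mm10 chromosome 16, 30064384 to 30067796, plus strand) encodes the repressor whose oscillating level is tied to the maintenance of neural progenitors. Its scaled counts were 654, 711 and 798 in shControl against 484, 542 and 416 in shMina53. The groups did not overlap, but Hes1 varied more within them than Hes5 did, with SDs of 72.6 and 63.1. It fell by 0.59 on the log2 scale (SE 0.130, limma adjusted p = 0.0106).

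Hes6 (ENSMUSG00000067071, mm10 chromosome 1, 91411483 to 91414038, minus strand) differs in role, since HES6 opposes HES1 and favours neuronal differentiation. It had scaled counts of 905, 984 and 1203 in shControl against 758, 707 and 648 in shMina53. It fell too, by 0.54 on the log2 scale (SE 0.125, limma adjusted p = 0.0143). shControl 3 was its highest library.

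Of the Hey genes, which encode repressors related to the Hes proteins and known also from the heart and blood vessels, Hey1 (ENSMUSG00000040289, mm10 chromosome 3, 8663359 to 8667256, minus strand) had the most reads. Its scaled counts were 1588, 1735 and 2092 in shControl against 1337, 1326 and 1341 in shMina53. The knockdown libraries lay close together (SD 7.41), while the control libraries spread widely (SD 259). Hey1 fell by 0.43 on the log2 scale (SE 0.116, limma adjusted p = 0.0321). Without shControl 3 its fold change was -0.31.

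Hey2 (ENSMUSG00000019789, mm10 chromosome 10, 30832359 to 30842801, minus strand) was less abundant. It had scaled counts of 124, 120.1 and 165 in shControl against 76.4, 76.8 and 90.4 in shMina53. It fell by 0.73 on the log2 scale (SE 0.193, limma adjusted p = 0.0280), with no overlap between the groups and with shControl 3 again the highest library.

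Heyl (ENSMUSG00000032744, mm10 chromosome 4, 123233556 to 123249875, plus strand), the third Hey gene, was near the limit of detection. It had 2, 2 and 1 reads in shControl and 5, 2 and 2 in shMina53. In all, 5 reads stood against 9, a ratio of 1.98 per total reads with a 95% counting interval of 0.595 to 7.51 (exact, conditional on the sum, covering counting error only). A change of Heyl was not detectable at this depth (limma adjusted p = 0.612).

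Rbpj (ENSMUSG00000039191, mm10 chromosome 5, 53466152 to 53657362, plus strand), the DNA-binding partner of cleaved Notch, had scaled counts of 1257, 1132 and 1177 in shControl against 1082, 1075 and 1198 in shMina53. The groups overlapped. Its log2 fold change of -0.09 had a 95% confidence interval of -0.32 to 0.14, and it was not called (limma adjusted p = 0.674). With the length trend removed the interval was -0.46 to -0.05, which takes in the falls of Hes1, Hes6 and Hey1 in that fit.

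Nrarp (ENSMUSG00000078202, mm10 chromosome 2, 25180758 to 25183339, plus strand) is itself a Notch target, and its product acts back on the Notch complex as an inhibitor. It had scaled counts of 293, 311 and 292 in shControl against 359, 242 and 291 in shMina53. The knockdown libraries lay on both sides of the controls. The log2 fold change was -0.02 (95% confidence interval -0.34 to 0.29, limma adjusted p = 0.944). This interval overlapped that of Hes1 (-0.86 to -0.31) but not that of Hes5 (-1.15 to -0.62). The difference of Nrarp from either gene was not tested. The sign of the Nrarp fold change was positive under 5 of the other settings tried, with values of up to 0.13. An antisense gene, Gm38287, shares 2051 exonic bases with Nrarp, no value of it was analysed here, and the sources used here do not say whether counting used strand.

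Numb and Numbl encode related endocytic adaptor proteins that dampen Notch at the membrane and are unequally shared between daughter cells in some divisions. Numb (ENSMUSG00000021224, mm10 chromosome 12, 83794034 to 83921934, minus strand) had scaled counts of 366, 289.8 and 327 in shControl against 351, 366 and 399 in shMina53. The groups overlapped (log2 fold change 0.19, 95% confidence interval -0.09 to 0.47, limma adjusted p = 0.430).

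Numbl (ENSMUSG00000063160, mm10 chromosome 7, 27258433 to 27282144, plus strand) had scaled counts of 724, 718 and 525 in shControl against 419, 427 and 409 in shMina53. Here shControl 3 was the lowest of the control libraries, as it was by less in Hes5 (478 against 503 and 492). In Hes1, Hes6, Hey1 and Hey2 it was the highest. Numbl fell by 0.63 on the log2 scale (SE 0.135, limma adjusted p = 0.00892). Without shControl 3 the fold change was -0.79.

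**Figure D2:**
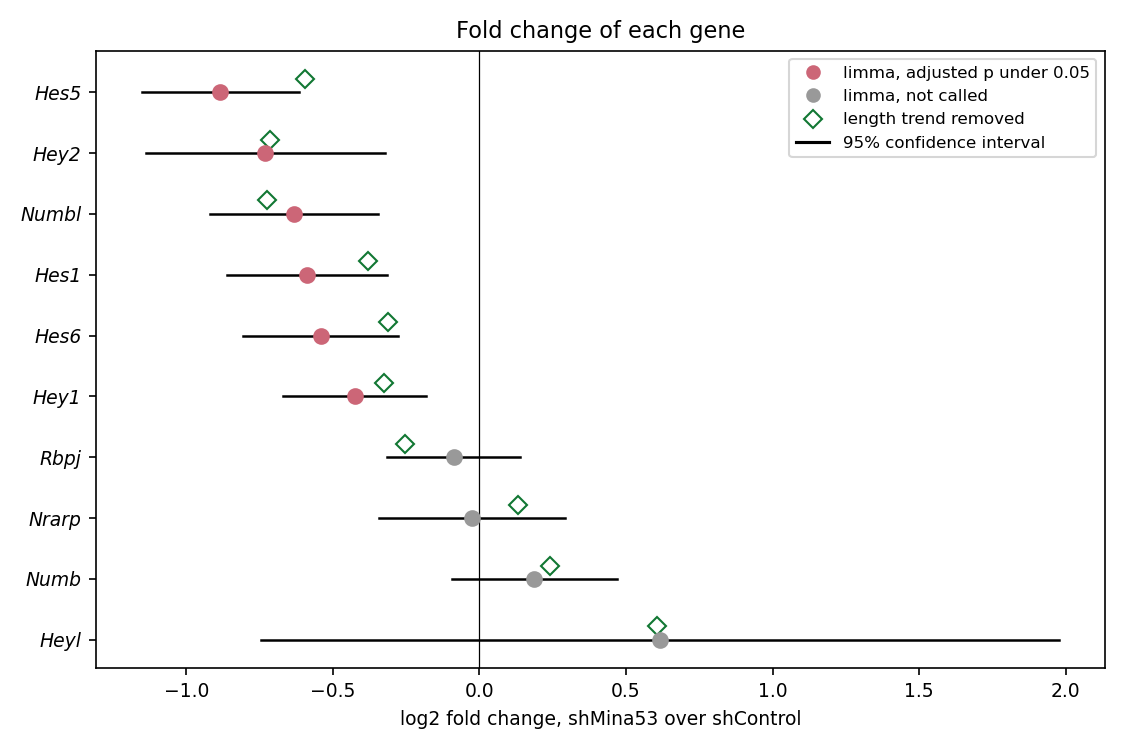
Log2 fold change of each gene, shMina53 over shControl, from limma (filled circles, with the 95% confidence interval as a line), and after the trend with exon length, over the union of exons, was removed from each library (open diamonds). The intervals of the 6 called genes lie below 0, and removing the trend moves Hes1, Hes5, Hes6 and Hey1 towards 0 and Numbl away from it.

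Leaving out single libraries ended most of these calls, though not their direction. Without shControl 2, Hes1, Hes6, Hey1, Hey2 and Numbl were not called (limma adjusted p = 0.0541 to 0.0985), and without shMina53 3 the same 5 genes were not (0.0662 to 0.122). Without shMina53 2, Hes6, Hey1 and Hey2 lost their call (0.0712 to 0.145), and without shMina53 1, Hey1 and Hey2 (0.0890 to 0.0928). Without shControl 3 only Hey2 did (0.0590), and without shControl 1 all 6 were called. The background moved too. The share of all tested genes called lower was 1.57% without shControl 2, 1.28% without shMina53 3, 1.73% without shMina53 2, 3.09% without shMina53 1, 5.98% without shControl 3 and 6.59% without shControl 1. All 6 genes were lower in shMina53 in each of these fits.

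**Figure D3:**
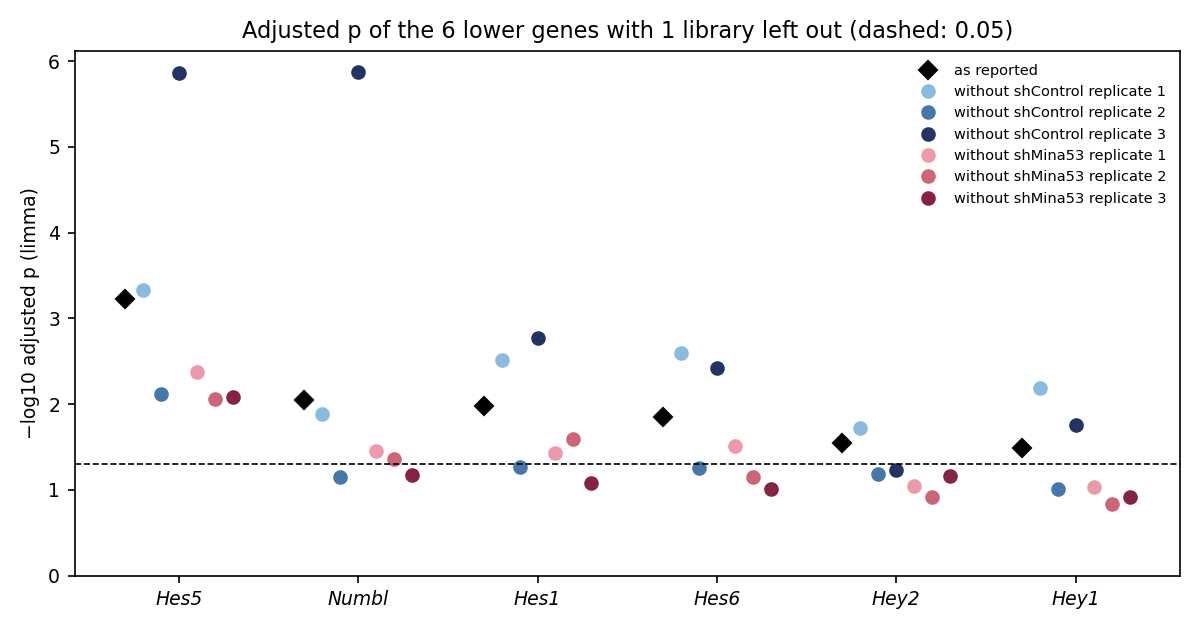
Minus log10 of the limma adjusted p of the 6 genes called lower, with all libraries (diamonds) and with each library left out (circles); the dashed line is an adjusted p of 0.05. Hes5 stays above the line throughout, and the other 5 genes cross it in 2 to 5 of the 6 cases.

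The length trend touched these genes unequally, and the short Hes transcripts most. Along the trend, genes of the exon length of Hes5 were lower in shMina53 by an offset of -0.29, those of Hes6 by -0.23 and those of Hes1 by -0.21, while for Numbl, with 8673 bases of exon, the offset was 0.09. With the trend removed, the log2 fold changes were -0.59 for Hes5, -0.38 for Hes1, -0.31 for Hes6, -0.33 for Hey1, -0.71 for Hey2 and -0.73 for Numbl. By the exon lengths used, the falls of Numbl and Hey2 were then larger than that of Hes5. All 6 genes were still called (limma adjusted p = 0.000232 to 0.0363), with 4.73% of all genes called lower in that fit. Rbpj moved to -0.25, with 12750 bases over the union of its exons but 5440 in its principal transcript, and it was not called (limma adjusted p = 0.113). The union of exons is 8673 bases for Numbl and 4593 for Hey2, but their principal transcripts have 2760 and 2550. At 2582 bases, the length of Nrarp, the offset was -0.16. No trend over principal transcripts was fitted. The order of Numbl, Hey2 and Hes5 under those lengths was thus not tested.

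Levels can be compared between genes per length of transcript, here in RPKM, the reads per kilobase of the principal transcript scaled to the library's total reads. In shControl, Hes6 (49.9 ± 6.57) and Hey1 (48.1 ± 6.06) were the highest and overlapped each other. Hes1 (31.7 ± 2.68) and Hes5 (25.0 ± 1.05) came next, each apart from its neighbours in that order. Numbl (15.4 ± 2.90) and Rbpj (14.1 ± 0.813) overlapped, and Numb (11.7 ± 1.37), Nrarp (7.48 ± 0.363) and Hey2 (3.45 ± 0.569) followed, with Heyl at 0.0226 ± 0.00820. In shMina53, Hes5 (13.5 ± 1.15) came down to the level of Rbpj (13.3 ± 0.797) and Numb (13.2 ± 0.843), whose libraries overlapped, and Numbl (9.77 ± 0.223) came to lie under Numb. That placing of Hes5 holds for the principal transcripts only: over the union of all exons, its RPKM in shMina53 (12.6 ± 1.08) stayed above those of Numb (6.13) and Rbpj (5.66). The order among Hes1 and Hes5, and that among Numbl, Rbpj, Numb and Nrarp, depends on the length used: over the union of all exons Hes5 (23.3 ± 0.980) and Hes1 (22.9 ± 1.93) overlapped in shControl, and Numbl (4.90 ± 0.923) lay under Nrarp.

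**Figure D4:**
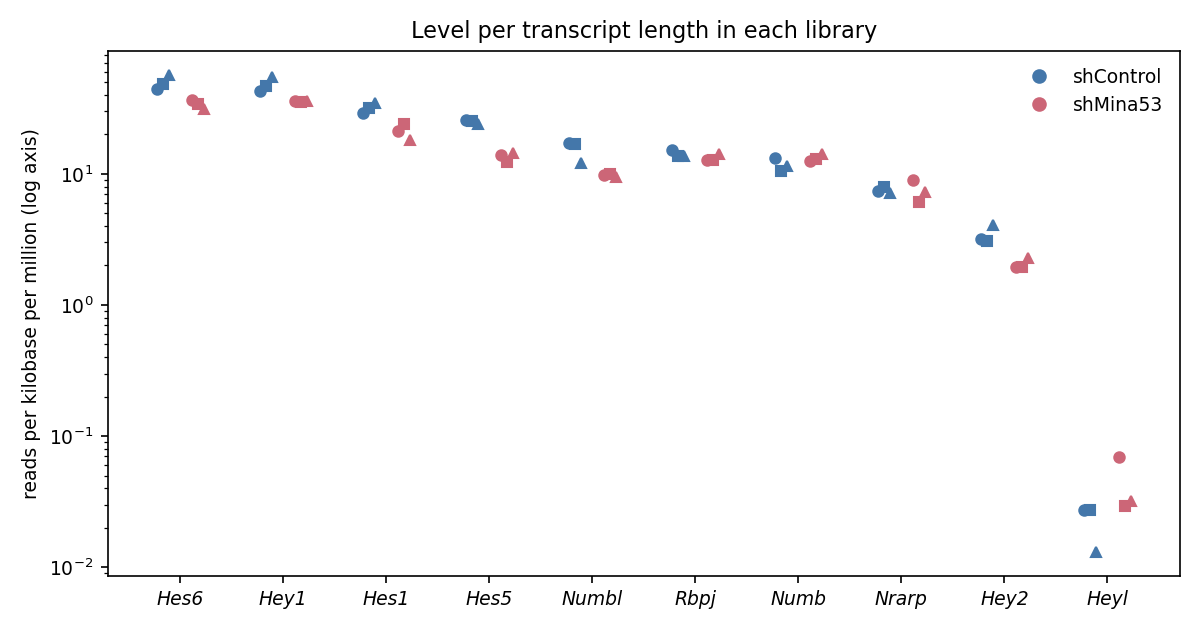
RPKM over the principal transcript for each gene in each library, on a log axis, ordered by the shControl mean; symbols mark replicates 1, 2 and 3. In shMina53 the Hes5 points lie among those of Rbpj and Numb, and Heyl lies far under all other genes.

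Summed over Hes1, Hes5, Hes6, Hey1 and Hey2, this level was 145, 155 and 174 in the shControl libraries and 109, 108 and 102 in the shMina53 libraries. Hes6 and Hey1 made up most of it in both groups. Hes1 took 20.1% ± 0.325 of the sum in shControl and 19.8% ± 2.16 in shMina53. Hes5 took 17.8%, 16.3% and 13.7% in shControl and 12.6%, 11.4% and 14.2% in shMina53, so its share overlapped between the groups. These are descriptions of the summed level and were not tested.

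The ratio of 2 related genes within a library does not depend on the library's scale factor. The log2 ratio of Numbl to Numb was 0.99, 1.31 and 0.68 in shControl and 0.25, 0.22 and 0.04 in shMina53. It was lower by 0.82 in shMina53 (difference -0.82), with no overlap. The ratio of Hey2 to Hey1 was also lower in every shMina53 library than in every shControl library (difference -0.31). For both, p was 0.1 in an exact permutation test (two-sided), the smallest that 3 libraries against 3 allow, and 0.167 adjusted over the 5 pairs compared. The ratio of Hes5 to Hes1 was -0.38, -0.53 and -0.74 in shControl and -0.83, -1.17 and -0.54 in shMina53, so the groups overlapped (difference -0.30, exact permutation p = 0.2, adjusted 0.250). That of Hes6 to Hes1 differed by 0.05 (exact permutation p = 0.8, adjusted 0.800). The ratio of Heyl to Hey1 rests on 1 to 5 reads of Heyl and is not read further (difference 1.34, exact permutation p = 0.1, adjusted 0.167).

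**Figure D5:**
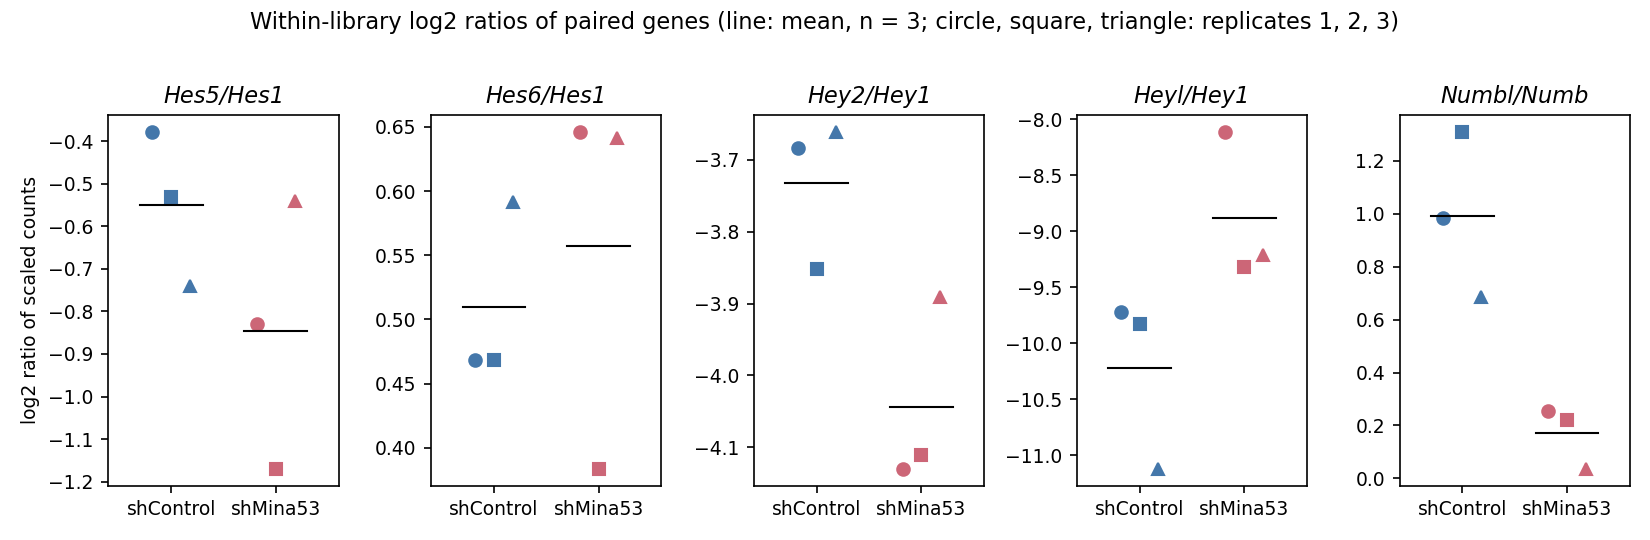
Log2 ratio of the scaled counts of paired genes within each library, with 1 panel per pair and its own axis; lines are means of 3 libraries. The groups are apart for Numbl/Numb, Hey2/Hey1 and Heyl/Hey1 and overlap for Hes5/Hes1 and Hes6/Hes1.

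The rest of the pathway did not move as one, and of all tested genes 8.26% were called, 4.47% lower and 3.79% higher. Of 11 tested genes for Notch receptors and ligands 3 were called, with Dll3, a ligand that inhibits Notch within its own cell, falling from 1347 ± 87.4 to 662 ± 184 scaled counts (log2 fold change -1.06, limma adjusted p = 0.000795). Dlk2, a non-canonical ligand, fell from 56.7 ± 13.6 to 29.5 ± 1.32 (-0.89), close to the threshold at an adjusted limma p of 0.0495, and Dner, a ligand known from neurons, rose from 2745 ± 163 to 3531 ± 65.9 (0.37). The median over the 11 genes was 0.13, against 0.02 over all genes tested. No receptor gene was called, but Notch3 was in DESeq2 (adjusted p = 0.0123) and, by limma, without shControl 3 (0.36, adjusted p = 0.00267). Notch3 had scaled counts of 2519, 2413 and 1266 in shControl against 3121, 3336 and 3059 in shMina53 (0.68, limma adjusted p = 0.128). Notch1, like Notch3 named after its values were seen, had scaled counts of 3784, 3374 and 1744 in shControl against 3977, 4110.2 and 3756 in shMina53 (0.49, limma adjusted p = 0.343), and in both genes shControl 3 lay far under the other libraries.

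Among 28 genes for glycosylation, trafficking and cleavage of Notch, 3 were called higher and 2 lower (3.79% and 4.47% of all tested genes), with a median of 0.02. Lfng, a fringe enzyme that alters which ligands Notch responds to, rose from 2967 ± 175 to 4923 ± 371 (0.73, limma adjusted p = 0.000653). Adam10, the protease that cuts ligand-bound Notch, rose from 2279 ± 183 to 3087 ± 91.2 (0.44), and Pofut1, which adds the fucose that fringe enzymes extend, from 707 ± 62.0 to 961 ± 70.2 (0.44). The genes called lower were the fringe gene Mfng (-0.85) and the gamma-secretase subunit gene Aph1a (-0.39), the latter named after its values were seen.

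The calls among the partners through which RBPJ and the Hes proteins act went both ways, beside 8.26% of all tested genes called. Among 21 RBPJ cofactor genes, Sap30, of the SIN3 corepressor complex, fell from 772 ± 117 to 438 ± 33.6 (-0.81, limma adjusted p = 0.00137), and L3mbtl3, whose product binds RBPJ, rose from 773 ± 80.8 to 1040.4 ± 30.1 (0.43), with a median of 0.04. Of 6 Groucho/TLE corepressor genes, through which Hes proteins repress, Tle2 rose from 472 ± 75.9 to 771 ± 109 (0.71, limma adjusted p = 0.00606) and 5 were not called (median 0.08).

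Other genes of the same protein class or of its usual targets gave the following, beside 4.47% of all tested genes called lower and 3.79% higher. Of 5 further bHLH-Orange genes tested, Bhlhe40 fell from 4626 ± 32.7 to 3324 ± 313 (-0.48, limma adjusted p = 0.0110) and Bhlhe41 from 1464 ± 110.3 to 1132 ± 39.6 (-0.37). The median of the 5, -0.48, was the value of Bhlhe40 itself. Hes3 and Hes7, oscillating Hes genes, had at most 15.3 scaled counts in any library and were not called. Helt, named after its values were seen, went the other way near the limit of detection. It had 0 reads in each shControl library and 2, 4 and 5 in shMina53, and was not called (2.22, limma adjusted p = 0.0649). Of the 4 Id genes, whose products bind bHLH proteins and block their binding to DNA, Id1 fell from 416 ± 83.5 to 204 ± 52.2 (-1.04) while Id4 rose from 274 ± 45.5 to 393 ± 40.2 (0.53), with a median of -0.22.

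Of 17 tested proneural factors and their targets, 2 were called, both lower (4.47% of all tested genes were), with a median of -0.33. Gadd45g, a growth arrest gene induced during neurogenesis, fell from 911 ± 184 to 514 ± 77.6 (-0.82, limma adjusted p = 0.00287), and Mfng is on this list too.

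Of the 16 genes called in these lists and named above (8.26% of all tested genes were called), Dll3, Lfng, Sap30, Id1 and Gadd45g stayed called without any 1 library. Tle2 was not called without shMina53 2 (limma adjusted p = 0.0553). Without shControl 1, Dner and Mfng lost their call (0.0566 to 0.0737), and without shControl 3 only Dlk2 did (0.0731). Without shControl 2, shMina53 1, shMina53 2 or shMina53 3, 10, 7, 11 and 9 of the 16 did, with adjusted limma p-values of up to 0.207, among them Pofut1, L3mbtl3, Id4, Bhlhe41, Dner and Dlk2 in each case, Adam10, Mfng and Aph1a in all but shMina53 1, and Bhlhe40 in all but shMina53 3. With the length trend removed, Dlk2 (0.110) and Mfng (0.0607) were not called. Dlk2 also missed the threshold with a pseudocount of 0.5 (0.0511) and in DESeq2 (0.0534), and Bhlhe41 under quantile normalization (0.0546). None of the 16 was called with the trend and robust steps of limma left out.

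For each gene called lower, the 2 genes with the most similar values over the 6 libraries were sought among those with a mean of at least 100 scaled counts. The measure was the root mean square difference of log2 values, each gene centred on its own mean. Hes5 was closest to Gnb4, a G protein subunit gene (0.0530), and to Hmga2, a chromatin protein gene of young neural stem cells (0.0563). Hes1 was closest to Scnm1 (0.0338) and Pdlim4 (0.0454), and Numbl to Tmem108 (0.0316) and Iffo2 (0.0473). Hes6 lay nearest to Pnrc1 (0.0215) and Tagln3 (0.0299), Hey1 to Pla2g12a (0.0264) and Emg1 (0.0270), and Hey2 to Rpl3-ps1, a ribosomal protein pseudogene (0.0416), and Gadd45g (0.0687). Among the 10 genes themselves, Hes6 and Hey1 were the closest pair (0.0884), followed by Hes1 and Hes6 (0.0987).

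Markers of other cell types moved in both directions, and of all tested genes 4.47% were called lower and 3.79% higher. Of 11 tested oligodendrocyte lineage markers, 5 were called, all lower (Sox10, Pdgfra, Gpr17, Mbp and Cldn11), and Sox10 fell from 507 ± 10.5 to 219 ± 11.4 scaled counts. The summed level of the 12 listed genes, most of it Olig1, overlapped, with 50294 to 52822 in shControl and 47839 to 57111 in shMina53. Of 11 neuronal markers 3 were called lower (Tubb3, Gap43 and Gad1) and 1 higher (Map2), with a median log2 fold change of -0.42. The sum, most of it Map2, was 17682 to 19467 in shControl and 18389 to 19504 in shMina53. Of 8 astrocyte markers 3 were called, all higher, and the sum ran from 32612 to 35346 in shControl and from 37678 to 41662 in shMina53. Of 4 ependymal markers Foxj1 was called, higher, with sums of 234 to 261 and 370.5 to 483. Of the 11 neural stem cell markers 2 were called higher (Slc1a3 and Nr2e1) and 2 lower (Sox2 and Vim), with sums of 140915 to 160985 and 138451 to 143498. The part of these other cell types in the falls of the Hes and Hey genes was not tested. Markers of blood vessel cells, which also use Hey genes, were low: the endothelial markers summed to 40.4 to 78.9 scaled counts in any library, and the 3 tested were not called by limma (unadjusted p = 0.110 to 0.544). Most of the sum was Kdr, with group means of 46.7 in shControl and 61.6 in shMina53, while the means were 3.47 and 5.90 for Tek and 1.89 and 1.34 for Pecam1. The mural and fibroblast markers summed to 249.7 to 358 scaled counts in shControl and 368 to 578 in shMina53, with no overlap. In each library Acta2 made up most of it (log2 fold change 0.60, limma adjusted p = 0.0581), and the means were 3.77 and 5.84 for Pdgfrb. None of the 7 tested was called. Their median log2 fold change, 0.82, was that of Rgs5, with means of 17.3 and 30.7. Lum, Pdgfrb and Col3a1 lay above it, with means of at most 7.53, and Acta2, Des (0.05) and Col1a1 (0.04) below it. The medians were -0.60 for the oligodendrocyte lineage list, 0.35 for astrocyte, 0.86 for ependymal and -0.08 for neural stem cell markers. The 2 microglial markers tested summed to 1.89 to 5.80.

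The authors' deposited table gives a p-value per gene without naming its test or an adjustment. In the authors' deposited table the 6 genes called lower here had p-values from 3.3e-09 (Hes5) to 0.00191 (Hey2), and Rbpj, Nrarp, Numb and Heyl from 0.246 to 0.975.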

How the data were processed

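RNA of 6 libraries of mouse neural stem cells, 3 shControl and 3 shMina53, was sequenced. The deposited table holds a signal per gene and library, a mean signal per group and a p-value. Build mm10 and the tools HISAT2 2.0.4, StringTie 1.3.4d, CASAVA, edgeR, UMI-tools and DESeq2 are listed, with no role given, per the submitters' processing notes. Every deposited signal value was a whole multiple of 1 step per library (100% of values, tolerance 0.01 reads), so whole reads were recovered. What the authors tested for the deposited p-value is not stated.

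Groups were compared with limma-trend (limma 3.58.1, R 4.3.3, trend and robust) on the log2 scale (pseudocount 1), two-sided and with no covariate, over the 21500 genes whose mean reached 1. edgeR 4.0.16 (15082 genes) and DESeq2 1.42.0 were run on the recovered reads. The members and lists were chosen with earlier results of these data known. Named genes are the 10 members, Riox2, up to 3 called genes with the smallest adjusted p per pathway list, and the 2 nearest genes to each called member by root mean square difference (mean of at least 100 scaled counts, no Gm or Rik symbols). Marker genes and a few others the text marks were named after their values were seen. Lists are given by counts and medians. Lengths and positions come from GENCODE M21 on mm10. The length trend was fitted per library by lowess (span 0.3) over 11377 protein-coding genes whose mean reached 50. The limma procedure was tested on simulated data.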

Additional observations from a re-analysis of the deposited data

How the results depend on the processing

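Alternatives changed the pseudocount (0.5 or 5), the filter (a mean of at least 10, or none), the scaling, the variance model, the replicate block, the tool, the length trend and the libraries used. Hes1, Hes5, Hes6, Hey1, Hey2 and Numbl were lower in all 17 of them. With the trend and robust steps of limma left out, 32 genes were called (18 higher, 14 lower), 0 of the 10 members and 0 of the genes on the pathway lists, against 16 of the latter as reported. When 1 library was left out, 497 to 2794 genes were called (224 to 1383 higher, 273 to 1411 lower), among them 1 to 6 members, each of them lower, and 5 to 22 genes of the pathway lists. With the replicate number as a block 1178 genes were called, 624 of them lower, and 5 members, since Hey1 missed the threshold (limma adjusted p = 0.0516). Of the 16 pathway genes the block ended 5 calls, those of Dner, Dlk2, Mfng, Bhlhe41 and Aph1a (limma adjusted p = 0.05003 to 0.0751), and it called Notch3 (0.0348), so that 12 were called. The numbers share no stated source: the correlations of same-numbered libraries' deviations were -0.15, 0.11 and 0.02 over 12053 genes. The log2 fold change of Nrarp, -0.02 as reported, was positive under quantile normalization (0.017), in edgeR (0.0021), with the length trend removed (0.13), without shControl 2 (0.0039) and without shMina53 2 (0.11), and leaving out 1 library gave -0.17 to 0.11. The cause was not tested. Depth limits Heyl, which edgeR and the filter at a mean of at least 10 left out and to which DESeq2 gave no adjusted p. The number of libraries limits the exact tests, which cannot give a p under 0.1.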
